A study of Mus musculus with 4 samples.

Results

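The genes of the carnitine shuttle and of the carnitine acyltransferases were followed in gastrocnemius, a calf muscle, from mice with a muscle-specific transgene for PPARα, a nuclear receptor that activates genes of fatty acid use. The members were 7 of the 13319 genes named on the array, named for their roles, with earlier results of these data known: Slc22a5, Cpt1a, Cpt1b, Slc25a20, Cpt2, Crat and Crot. They were read by 13 of the 22626 probe sets on the array other than controls, 12 with a single gene symbol and 1, the sole Cpt1b probe set, with several. The compared groups were 2 MCK-PPARa arrays, from transgenic mice in which the muscle creatine kinase (MCK) promoter drives PPARα, and 2 NTG arrays, from non-transgenic littermates. The labels name no treatment, age, sex or strain. They do not say which animal each array came from, and every p-value below covers the spread between arrays, which may be technical. Affymetrix MAS5 signals, which are linear and in arbitrary units, were used as deposited, and levels are compared across arrays within a probe set, never between probe sets.

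Long-chain fatty acids enter the mitochondrial matrix bound to carnitine. Slc22a5 encodes OCTN2, the plasma membrane transporter that takes up carnitine. Carnitine palmitoyltransferase 1 on the outer mitochondrial membrane moves the fatty acid from coenzyme A to carnitine. Its liver form is encoded by Cpt1a and its muscle form by Cpt1b, and malonyl-CoA inhibits both. Slc25a20 encodes the inner-membrane carrier that exchanges acylcarnitine for free carnitine, and Cpt2 the inner-membrane enzyme that returns the acyl group to coenzyme A. Crat encodes carnitine acetyltransferase, which acts on acetyl and other short acyl groups, and Crot the peroxisomal carnitine octanoyltransferase, which acts on medium chains shortened in peroxisomes. In skeletal muscle Cpt1b is the main form of the regulated first step, and several genes of the route are known PPARα targets.

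The 2 inner-membrane members, Slc25a20 and Cpt2, had the largest differences, with their brightest probe sets 5.13-fold and 4.36-fold higher in MCK-PPARa muscle. Crat was 2.03-fold higher on its brighter probe set. The Cpt1b probe set differed by less than its spread between arrays, and Cpt1a and Crot had lower values that did not pass the test. In bulk muscle RNA, a different share of a cell type and a different amount of RNA per cell cannot be told apart. Of the 13 probe sets 11 passed the filter on dim signals, a mean over the 4 arrays of at least the 40th percentile, and were tested with limma on log2(signal + 64.2) together with all 13576 probe sets that passed. None of the 11 passed an adjusted p of 0.05 (Benjamini-Hochberg over all probe sets tested), where 0.0368% of all probe sets tested were called higher and 0.0147% lower. At an unadjusted limma p under 0.05, 4 of the 11 were higher, against 2.98% of all tested, and none was lower, against 2.68%. With the replicate number as a block in the fit, 4 of the 11 rose at an adjusted p under 0.05, against 1.24% of all tested, and none fell, against 1.01%. The 4 were both Slc25a20 probe sets, the brighter Cpt2 probe set and the brighter Crat probe set. The block uses up part of the information on spread within each probe set. Its p-values therefore lean more on the spread shared across probe sets.

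Replicate number also split the arrays. The 18S ribosomal RNA control probe set at the 5′ end was at 2313 and 44.7 on MCK-PPARa replicates 1 and 2, and 2202 and 28.9 on NTG replicates 1 and 2. The labels do not say what the number marks, so the difference within each replicate number is given beside the pooled one. The targeted gene, Ppara, read 7969 and 15226 in MCK-PPARa muscle and 633 and 2674 in NTG muscle. All 11 skeletal muscle markers passed the filter, with changes between -0.20 and 0.34 on the log2 scale. The 6 measured adipocyte markers summed to 18004 to 29023 in MCK-PPARa and 7696 to 8037 in NTG muscle, and 4 were above 0 in change. On the log2 scale Fabp4 averaged 1.93 higher, Adipoq 1.34, Retn 0.81 and Lipe 0.30. With the replicate block 2 of these, Fabp4 and Adipoq, rose at a limma adjusted p under 0.05, against 1.24% of all tested. The leptin gene Lep, between 76.9 and 125 on all 4 arrays, and Ucp1 were below the filter. The 5 liver markers summed to 4488 to 15389 in MCK-PPARa and 3310 to 31061 in NTG muscle, with the replicate 1 array the higher in both groups. Other marker sums were also higher in both MCK-PPARa arrays than in both NTG arrays. They were 15753 to 17786 against 12407 to 14916 for endothelial markers, and 9279 to 10859 against 7468 to 8337 for macrophage and immune markers. Fibroblast markers summed to 232353 to 258582 against 194772 to 229916, and red blood cell markers to 3771 to 4432 against 2921 to 3389. The nerve and Schwann and the smooth muscle and pericyte sums overlapped between groups. The part of any of these cell types in the values below was not tested.

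**Figure D1:**
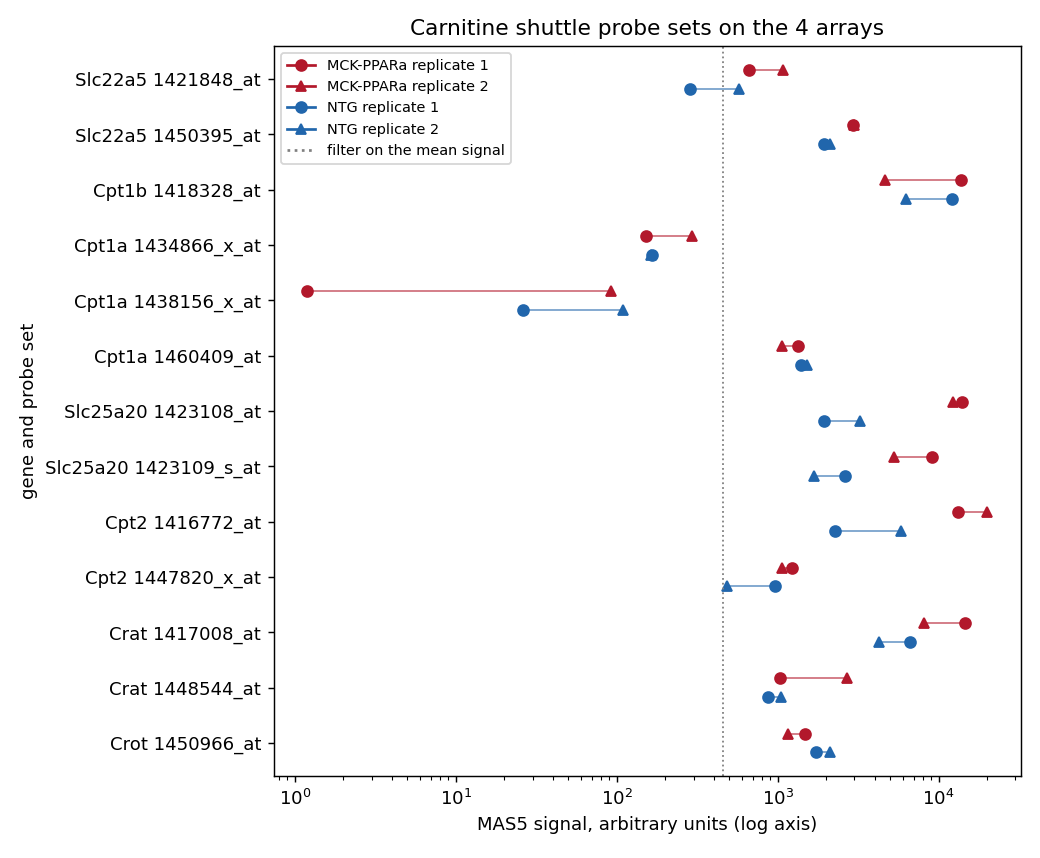
MAS5 signal in arbitrary units on a log axis for each of the 13 probe sets, with MCK-PPARa arrays in red above NTG arrays in blue, circles for replicate 1 and triangles for replicate 2; lines join the 2 arrays of a group and the dotted line is the filter on the mean signal. The red and blue points are far apart for Slc25a20 and for Cpt2 1416772_at, overlap for Cpt1b, and 2 Cpt1a probe sets lie left of the filter.

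Slc22a5, which brings carnitine into the fibre, was read by 2 probe sets, both higher in MCK-PPARa muscle without passing the test. Probe set 1450395_at read 2937 and 2965 in MCK-PPARa muscle, against 1943 and 2117 in NTG muscle. The groups did not overlap, and the spread within each group was small beside the gap. The difference was 0.53 ± 0.30 (SE, n = 2 per group) on the log2 scale, or 1.44-fold, with a limma adjusted p of 0.98. The dimmer 1421848_at read 665 and 1074 in MCK-PPARa muscle, against 286 and 573 in NTG muscle (0.95 ± 0.50, limma adjusted p = 0.94). Here too the groups did not overlap, but replicate 2 was the higher array in both. The NTG mean of this probe set, 429, lay under the filter's cut of 455, so it entered the test through its MCK-PPARa values. Within replicate numbers 1 and 2, the log2 differences were 0.58 and 0.47 for 1450395_at, and 1.06 and 0.84 for 1421848_at.

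Cpt1b, the muscle form of the malonyl-CoA-sensitive first step, was read by 1418328_at alone. The annotation gives this probe set 3 symbols, Cpt1b, its neighbour Chkb, a choline kinase gene, and Gm44502, the read-through gene Chkb-Cpt1b, so its signal cannot be assigned to Cpt1b alone. It read 13784 and 4663 in MCK-PPARa muscle, against 12092 and 6265 in NTG muscle. Replicate 1 was the high array and replicate 2 the low one in both genotypes, and the groups overlapped. The difference was -0.12 ± 0.54 (SE, n = 2 per group) on the log2 scale, with a limma adjusted p of 0.998, and it had opposite signs within the replicate numbers, 0.19 in replicate 1 and -0.42 in replicate 2. With the replicate block the adjusted p was 0.86 and the SE 0.22. A probe set for Chkb alone, 1448448_a_at, read 2231 and 3005 in MCK-PPARa muscle, against 1818 and 1776 in NTG muscle (0.51 ± 0.32, limma adjusted p = 0.98), and did not share the replicate pattern.

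Cpt1a, the liver form of the same step, was read by 3 probe sets, of which only 1460409_at passed the filter. It read 1342 and 1067 in MCK-PPARa muscle, against 1394 and 1522 in NTG muscle. Both transgenic arrays lay below both controls, but MCK-PPARa replicate 1 and NTG replicate 1 were nearly level. The difference was -0.27 ± 0.32 (SE, n = 2 per group), with -0.05 and -0.49 within replicates 1 and 2 and a limma adjusted p of 0.99. The other 2 probe sets carry the suffix _x_at, which Affymetrix gives to probe sets whose probes may also match other sequences. Probe set 1434866_x_at read 153 and 294 in MCK-PPARa muscle and 165 and 164 in NTG muscle, and 1438156_x_at read 1.2 and 92.3 in MCK-PPARa muscle and 26.0 and 110 in NTG muscle. Both overlapped between groups, and in the fit without a filter their adjusted p was 0.99 and 0.98. Taken as a difference within each array, the change of Cpt1b minus that of Cpt1a 1460409_at was 0.15 on the log2 scale (exact permutation test, two-sided p = 0.667). The smallest p that 2 arrays against 2 allow in that test is 0.333.

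Slc25a20, the acylcarnitine-carnitine carrier, had the largest difference of all members. Probe set 1423108_at read 14000.1 and 12335 in MCK-PPARa muscle, against 1937 and 3248 in NTG muscle. The lowest transgenic array stood several times above the highest control, and the transgenic arrays lay close together. The difference was 2.36 ± 0.35 (SE, n = 2 per group) on the log2 scale, which ranked 21 by p among the 13576 probe sets tested. The limma adjusted p was 0.086 without a block and 0.0012 with the replicate block. Within replicates 1 and 2, it was 2.81 and 1.90.

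The second Slc25a20 probe set, which the annotation gives the same source sequence, had the same direction. Probe set 1423109_s_at read 9155 and 5281 in MCK-PPARa muscle, against 2616 and 1687 in NTG muscle. The groups did not overlap, and here replicate 1 was the higher array in both. The difference was 1.70 ± 0.39 (SE, n = 2 per group), or 3.24-fold, with limma adjusted p of 0.27 without a block and 0.0030 with it. Its differences within replicates 1 and 2 were 1.78 and 1.61, nearer to each other than those of 1423108_at.

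PPARα binds DNA with the receptor RXR at a direct repeat, AGGTCA given 2 times in the same direction with 1 base between. The closest match to this repeat, on either strand, was found in the RefSeq promoter windows (250 bases before to 50 after an annotated start, build GRCm38.p6) of the 5 members that the table holds, Slc25a20, Cpt2, Cpt1a, Crot and Slc22a5. Slc25a20 is set beside Cpt2, the other member with a large difference, and Cpt1a, whose smaller difference (-0.27 on 1460409_at) did not pass in either fit. Each sequence is 30 bases, 5′ to 3′ on the strand of the gene, with the 13 bases of the match in capitals.
Slc25a20, chr9:108662134-108662163, plus strand: ctgaatgtAGGTGAAAGGTCGgcggagccg
Cpt2, chr4:107923810-107923839, minus strand: aATGCCAAGTTTCAgcgtttcttttttctc
Cpt1a, chr19:3323147-3323176, plus strand: aaggaatgTTGTCCTAGGTCTgccgttggc
The Slc25a20 match lies at bases 7 to 19 after the annotated start and departs from the repeat at 2 of its 12 fixed letters, C5G and A13G, with positions counted from 1 at the repeat's 5′ end. Of all 32851 promoter windows, 3.86% hold a match at least as close. The Cpt2 match departs at 5 letters, and 99.9% of windows hold one at least as close. The Cpt1a match departs at 4, as do those of Crot and Slc22a5, and 79.8% of windows hold one at least as close. Where several matches tied, the most upstream one on the strand of the gene was taken. A match describes letters and shows no binding, and the windows leave out more distant sequence and other annotated starts.

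Cpt2, which hands the acyl group back to coenzyme A in the matrix, was read by 2 probe sets that differed in size of change. Probe set 1416772_at read 13199 and 19835 in MCK-PPARa muscle, against 2275 and 5871 in NTG muscle. The groups did not overlap, and replicate 2 was the higher array in both genotypes. The difference was 2.12 ± 0.47 (SE, n = 2 per group), with 2.50 and 1.75 within replicates 1 and 2. Its limma adjusted p was 0.25 without a block and 0.0015 with the replicate block. The dimmer 1447820_x_at read 1235 and 1071 in MCK-PPARa muscle, against 962 and 487 in NTG muscle (0.69 ± 0.41, limma adjusted p = 0.98, and 0.36 with the block). It had the same direction in both replicate numbers, 0.34 and 1.04, but a smaller log2 size. Like the dimmer Cpt1a probe sets it carries the suffix _x_at, so its probes may also match other sequences.

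**Figure D2:**
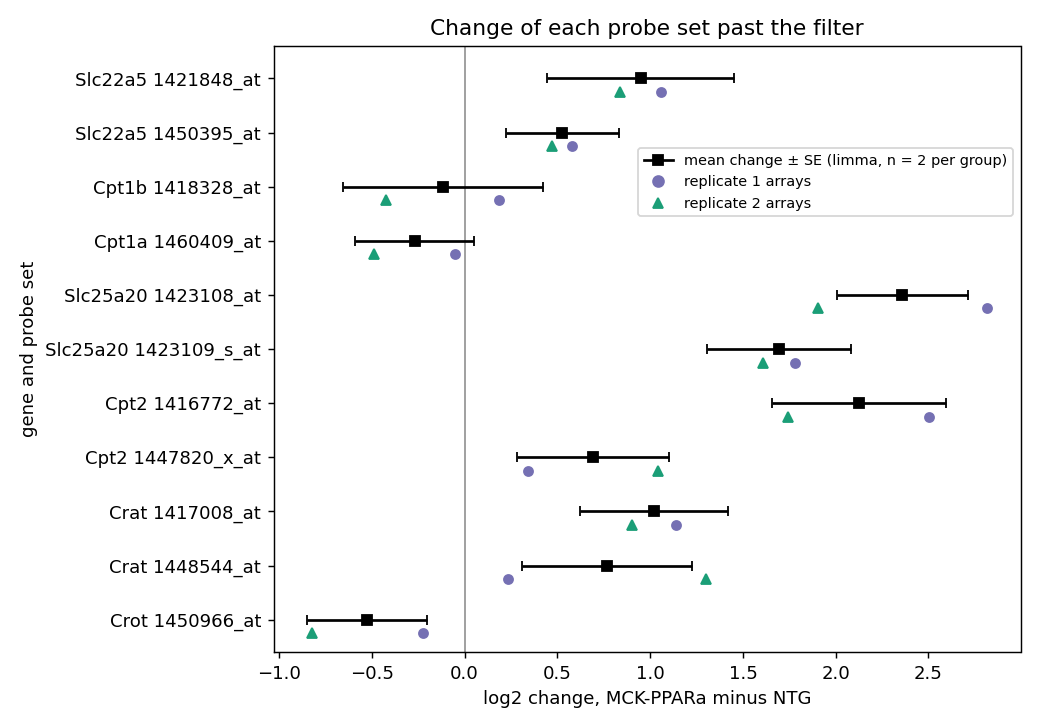
Log2 change, MCK-PPARa minus NTG, for the 11 probe sets past the filter: black squares with bars are the mean change ± SE (limma, n = 2 per group), purple circles the difference between the replicate 1 arrays and green triangles that between the replicate 2 arrays. Slc25a20 1423108_at is farthest right at 2.36, and Cpt1b is the only probe set whose 2 within-number differences fall on opposite sides of 0.

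Because Slc25a20 and Cpt2 act just after the step of Cpt1b, their changes were also set against it within each array, a comparison chosen after the values were seen. The change of Slc25a20 1423108_at exceeded that of the Cpt1b probe set by 2.48 on the log2 scale, and that of Cpt2 1416772_at exceeded it by 2.24. In each pair both MCK-PPARa arrays lay above both NTG arrays, by little for Cpt2, where the nearest arrays were at -0.06 in MCK-PPARa and -0.09 in NTG muscle. The exact permutation test gave a two-sided p of 0.333 for each, the smallest it can give here. The replicate spread of the Cpt1b probe set enters both values.

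Crat, which buffers acetyl-CoA as acetylcarnitine, was read by 2 probe sets, both higher in MCK-PPARa muscle. Probe set 1417008_at read 14630 and 8062 in MCK-PPARa muscle, against 6608 and 4276 in NTG muscle. The groups did not overlap, although MCK-PPARa replicate 2 lay close above NTG replicate 1, and replicate 1 was the higher array in both. The difference was 1.02 ± 0.40 (SE, n = 2 per group), with 1.14 and 0.90 within replicates 1 and 2. Its limma adjusted p was 0.77 without a block and 0.033 with it. The dimmer 1448544_at read 1033 and 2682 in MCK-PPARa muscle, against 870 and 1050 in NTG muscle (0.77 ± 0.46, limma adjusted p = 0.98, and 0.29 with the block). Its groups overlapped, since MCK-PPARa replicate 1 lay below NTG replicate 2, and its difference was 0.23 in replicate 1 and 1.30 in replicate 2.

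Crot, the peroxisomal member, was read by 1450966_at and lay lower in MCK-PPARa muscle. It read 1472 and 1160 in MCK-PPARa muscle, against 1733 and 2099 in NTG muscle. The groups did not overlap, and the difference was -0.52 ± 0.32 (SE, n = 2 per group), or 1.44-fold lower. It did not pass, with a limma adjusted p of 0.98 without a block and 0.40 with it, and the differences were -0.23 and -0.82 within replicates 1 and 2.

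Over the 11 tested probe sets the median change was 0.77, with 8 above 0, against a median of 0.03 and 53.4% above 0 over all probe sets tested. Groups that did not overlap were found for 7 of the 11 in the higher direction, against 19.0% of all tested, and for 2 in the lower direction, against 14.8%. Slc22a5 1421848_at, which reached the filter through its MCK-PPARa values, had to differ. Without it the median over 10 probe sets was 0.73, with 7 above 0 and 6 that did not overlap in the higher direction. These counts describe the probe sets and are no test of them. The within-number medians of the 11 were 0.58 in replicate 1 and 0.90 in replicate 2. These counts are over probe sets, and those of 1 gene share its transcripts.

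The genes around the shuttle were taken from lists chosen with earlier results of these data known. Each gene is represented by its brightest single-symbol probe set, and no gene of these lists passed the main limma test at an adjusted p of 0.05. Of the 3 carnitine synthesis genes only Aldh9a1, an aldehyde dehydrogenase of that pathway, was tested, at 928 and 1676 in MCK-PPARa muscle and 523 and 503 in NTG muscle (1.19 ± 0.41). The last enzyme, Bbox1, read 667 and 98.1 in MCK-PPARa muscle and 429 and 87.6 in NTG muscle, below the filter and high on the replicate 1 arrays. Of the other carriers only Slc25a29, a mitochondrial carrier of basic amino acids, was tested (-0.15 ± 0.33), while the carnitine transporter relatives Slc22a4 and Slc22a21 stayed between 20.6 and 186 on the 4 arrays.

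The 3 genes that set malonyl-CoA, the inhibitor of the first step, all had changes above 0. Mlycd, the decarboxylase that removes malonyl-CoA, read 10409 and 11118 in MCK-PPARa muscle, against 4439 and 4901 in NTG muscle. It was 1.19 ± 0.30 higher (limma adjusted p = 0.37), and with the replicate block it rose (limma adjusted p = 0.015). The acetyl-CoA carboxylases that make malonyl-CoA did not pass in either fit, with 0.43 ± 0.31 for Acacb, the form associated with mitochondria, and 0.73 ± 0.47 for Acaca. The NTG mean of Acaca, 401, lay under the filter's cut, so it too was tested only because of its MCK-PPARa values. Of the long-chain acyl-CoA synthetases, which supply the substrate of the first step, 3 were tested and their median change was -0.04. These were Acsl4 (0.33 ± 0.41), Acsl5 (-0.04 ± 0.36) and Acsl6 (-0.59 ± 0.36), and none passed in either fit.

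The mitochondrial β-oxidation list, downstream of Cpt2, had a median change of 1.18 over 15 genes, with 15 above 0. With the replicate block 12 rose and none fell, against 1.24% and 1.01% of all probe sets tested. The smallest p-values were those of Etfdh (2.33 ± 0.33), which passes electrons from the pathway to ubiquinone, Decr1 (2.03 ± 0.31), which acts on unsaturated acyl groups, the very-long-chain acyl-CoA dehydrogenase Acadvl (1.46 ± 0.31) and the enoyl-CoA isomerase Eci2 (1.23 ± 0.30). The peroxisomal list, upstream of Crot, had a median of 0.56 over 8 tested genes with 7 above 0, and 3 rose with the block. These were Hsd17b4 (1.76 ± 0.30) and Ehhadh (2.13 ± 0.45), the multifunctional enzymes of the cycle, and Scp2 (1.30 ± 0.30), which holds a thiolase. The peroxisomal transporter gene Abcd3 (0.47 ± 0.33) did not pass in either fit. The largest difference in the list ran the other way and is not in these counts: Abcd2, a second peroxisomal transporter, read 42.5 and 56.8 in MCK-PPARa muscle, against 522 and 1161 in NTG muscle. Its NTG mean of 842 was above the filter's cut, and its low MCK-PPARa values took its overall mean below it. In the fit without a filter its change was -2.90 ± 0.59 (limma adjusted p = 0.26, unadjusted p = 0.00086), named after its values were seen. The difference between Crot and these 3 was not tested.

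**Figure D3:**
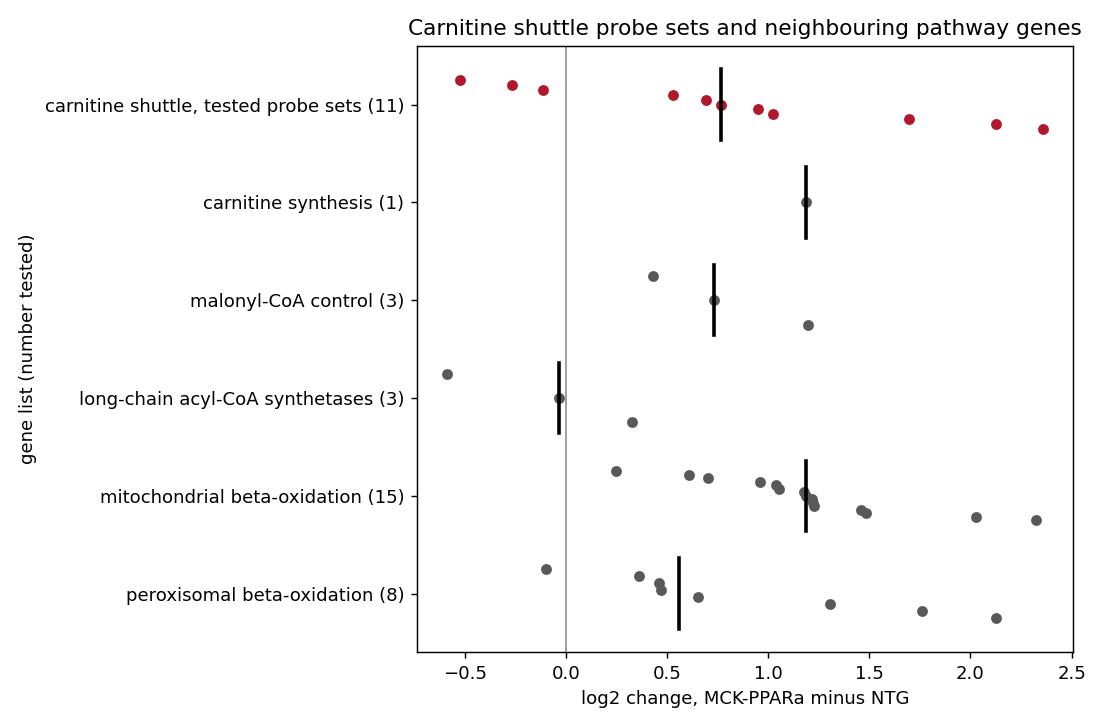
Log2 change, MCK-PPARa minus NTG, for the 11 tested carnitine shuttle probe sets (red) and for 1 probe set per gene in 5 neighbouring lists (grey), with the number tested in brackets and the median as a black bar. The shuttle probe sets run from -0.52 to 2.36, and the 15 mitochondrial β-oxidation genes all lie above 0.

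The genes most like Slc25a20 1423108_at over the 4 arrays were found by Euclidean distance of log2 values centred on each gene's mean, among 8401 genes. They were Etfdh (distance 0.15), the acetylcholine receptor subunit gene Chrna1 (0.27), the cytokine gene Il1f10 (0.28), the glutamate transporter gene Slc1a1 (0.29) and the folate transporter gene Slc46a1 (0.37). The NTG means of Il1f10, Slc1a1 and Slc46a1, at 268, 395 and 150, lay under the filter's cut of 455.3. These genes entered the comparison through their MCK-PPARa values, so they had to be higher in that group. Etfdh, the nearest, read 19517 and 17387 in MCK-PPARa muscle, against 3011 and 4352 in NTG muscle. It shares with Slc25a20 a low NTG replicate 1 and a slightly higher MCK-PPARa replicate 1. The 5 nearest to the Cpt1b probe set were Mrpl34 (0.06), Rab1b (0.10), Ei24 (0.13), Copg2 (0.14) and Znrf1 (0.16), none of them a fatty acid oxidation gene. Mrpl34, a mitochondrial ribosomal protein gene, read 5837 and 1966 in MCK-PPARa muscle and 5384 and 2641 in NTG muscle, high in replicate 1 of both genotypes. The pattern shared by these genes and the Cpt1b probe set was therefore that of the replicate number, and whether it is technical was not tested.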

How the data were processed

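Total RNA from gastrocnemius of 4 samples was hybridised to an Affymetrix mouse array, 1 array per sample. The authors deposited linear signal intensity values, made with MAS5 per the submitters' processing notes. Neither the version of MAS5 nor detection calls were in hand, so which probe sets exceed background is unknown, and the number of arrays limits the precision. The deposited 2% trimmed means lay between 1500.6 and 1500.7, and no further normalization was applied. Gene symbols came from the platform annotation.

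The log2 of signal plus 64.2 was analysed, an offset equal to 10% of the median signal; this scale understates changes of dim probe sets. The 64 controls and probe sets with a mean under the 40th percentile (455.3) were left out. The remaining 13576, those with several symbols included, were fitted in limma 3.58.1 under R 4.3.3 (lmFit, eBayes with a variance trend, two-sided, Benjamini-Hochberg, 8.19 moderated degrees of freedom, 2 of them residual). The fit was also run on simulated arrays with independent noise. These had no replicate-number effect, so that run says nothing on how the fit handles the replicate pattern. Named genes were all member probe sets, Ppara, Chkb, up to 4 genes by smallest p of each pathway list, and the 5 genes nearest to Slc25a20 and to Cpt1b. Genes below the filter, markers and list members named for completeness fall outside this rule and were chosen after their values were seen. Members and lists were chosen with earlier results of these data known. Replicate numbers 1 and 2 occur in both groups; across probe sets, the replicate 2 minus replicate 1 differences of the groups correlated (r = 0.46), and probe sets are not independent replicates. Alternatives were other offsets, filters, scalings and variance models, a replicate block, single arrays left out and 1 probe set per gene.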

Additional observations from a re-analysis of the deposited data

How the results depend on the processing

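Over the alternatives run for single member probe sets, 127 of 142 values kept their direction and their side of the threshold, 13 passed the threshold where the fit of all 4 arrays without a block did not, and 2 changed sign. The 2 were the Cpt1b probe set without MCK-PPARa replicate 2 (0.66) and without NTG replicate 1 (0.35); with each array left out in turn its change ran from -0.89 to 0.66. The cause was not tested. With all 4 arrays and no block, no offset, filter, scaling or variance model brought a member past the threshold, and the lowest adjusted p was 0.071, for Slc25a20 1423108_at without a filter. With the replicate block 4 of 11 member probe sets rose. With 1 array left out, 2 to 3 passed, Slc25a20 1423108_at each time, with changes from 2.00 to 2.72. These fits gave 9 of the 13 values past the threshold. They leave 1 group with a lone array, assumed to vary like the other group, and calls over all probe sets rose too, so they are no evidence of stability. No member fell in any setting run.

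Over all probe sets tested, 5 rose and 2 fell. The numbers were 169 and 137 with the replicate block, 44 to 92 and 22 to 145 with 1 array left out, 2 and 1 after quantile normalization, 1 and 0 after median centring, and 2 and 0 without a variance trend. After the filter at the 60th percentile 2 rose, and with 1 probe set per gene 1 fell. Median centring moved the median change of all probe sets by -0.10, and no member changed sign under it. The change of Cpt1b minus that of Cpt1a ran from -0.47 to 0.77 with 1 array left out, and was -0.40 and 0.19 with the dimmer Cpt1a probe sets 1434866_x_at and 1438156_x_at. A single array therefore sets its sign. Without detection calls, the dimmer probe sets of Cpt1a cannot be told from background.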
